A study of Mus musculus with 22 samples.

Results

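ITAM adaptors, Syk-family kinases and the scaffold and SAP-family adaptors that work beside them were followed across 11 lymphocyte populations sorted from mouse mammary tumours. The set is a named list of 10 genes (Fcer1g, Tyrobp, Hcst, Cd247, Syk, Zap70, Lat, Lat2, Sh2d1a and Sh2d1b1), looked up by gene symbol in a count table of 37620 rows. Of the 10 genes, 9 have a row and are described here, and Sh2d1b1, whose current identifier matched no row, was not analysed here. The list itself applies no threshold to measured values, but it was drawn up with earlier results of these data known.

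The cells came from pooled mammary tumours of female PyMT C57BL/6 mice aged 20 to 24 weeks, and all 11 populations share this source. In PyMT mice a transgene for the middle T antigen of polyoma virus, driven in mammary epithelium by the MMTV promoter, produces the tumours. Each population has 2 libraries. Of the populations labelled with sort markers, 4 carry a T-cell receptor (TCR) beta chain: TCRb+CD8a-NK1.1+, TCRb+CD8a+NK1.1+, TCRb+CD8a+PD1+ and TCRb+CD8a+PD1-NK1.1-. The fifth of that set, TCR-NK1.1+, was sorted as lacking a TCR. A second set of 6 holds ILC1l (innate lymphoid cells of type 1 character), cNK (conventional natural killer cells), TCRab+ILTC1 and TCRgd+ILTC1 (innate-like T cells with an alpha-beta or a gamma-delta TCR), TCRgd+NK1.1- and TCRb+CD8a+NK1.1-. NK1.1 is the surface product of Klrb1c, and PD1 is an inhibitory receptor of activated T cells. The split into 2 sets follows the populations each needs as its comparator. The labels name no batch, and nothing in them says that the 2 libraries of a population come from separate animals, so p-values measure only the spread between these libraries.

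Immunoreceptors such as the TCR and many NK receptors have no kinase of their own and signal through small partners. Fcer1g, Cd247 and Tyrobp encode adaptors whose cytoplasmic tails hold immunoreceptor tyrosine-based activation motifs (ITAMs), and once Src-family kinases phosphorylate these, Syk or Zap70 docks on them. The kinases then phosphorylate the membrane scaffolds Lat and Lat2, on which downstream enzymes assemble. Hcst encodes DAP10, the adaptor of NKG2D, which carries a YINM motif that recruits phosphoinositide 3-kinase in place of an ITAM, and Sh2d1a encodes SAP, the adaptor of SLAM-family receptors. In T cells the TCR complex relies on Cd247 and Zap70 with Lat, while NK cells hold both kinases and all 3 ITAM adaptors.

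Library totals ran from 8696335 to 20602715 counts, and levels are given as CPM (library-scaled counts on a per-library total of 1000000) after TMM scaling over all 22 libraries. At these depths 3 counts equal 0.146 to 0.345 CPM. Klrb1c lay between 921 and 2452 CPM in the 14 libraries of the 7 NK1.1+, ILC1l, cNK and ILTC1 populations and between 0.841 and 81.5 CPM in the 8 libraries of the other 4, called NK1.1- below. The label of TCRb+CD8a+PD1+ does not name NK1.1, and its libraries are among these 8 with 3.28 and 0.841 CPM. The TCR label was followed less evenly by Cd3e, which encodes a signalling chain of the TCR complex: cNK libraries held 0.615 and 6.09 CPM, but ILC1l held 86.1 and 460, and TCR-NK1.1+ held 217 and 437, against 543 to 1951 CPM in the populations sorted for a TCR. TCRgd+NK1.1- stood apart from all others by a list of 20 myeloid genes, whose summed level there was 6821 and 16781 CPM against 74.7 to 2182 CPM elsewhere. Myeloid cells express Fcer1g, Tyrobp, Syk and Lat2 themselves, so this value is given again beside the results it touches.

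Promoter sequences are shown for 4 of the genes because their levels contrast most plainly: Fcer1g, which was high in the NK1.1+ and innate populations, Lat, which was highest in the 3 NK1.1- CD8 T-cell populations, Cd247, which was highest in 2 of them, and Hcst, which passed in no comparison and whose neighbour on the chromosome is Tyrobp. Each is the 250 bases before the transcription start in RefSeq (build GRCm38.p6), printed 5′ to 3′ on the strand of the gene. The tables used here held a window for 7 of the 10 genes. Capitals mark the core of ETS-family sites, AGGAA or its reverse complement TTCCT. The Fcer1g window is chr1:171234350-171234599 (minus strand), the Hcst window chr7:30419855-30420104 (minus), the Cd247 window chr1:165788431-165788680 (plus) and the Lat window chr7:126369569-126369818 (minus).
Fcer1g: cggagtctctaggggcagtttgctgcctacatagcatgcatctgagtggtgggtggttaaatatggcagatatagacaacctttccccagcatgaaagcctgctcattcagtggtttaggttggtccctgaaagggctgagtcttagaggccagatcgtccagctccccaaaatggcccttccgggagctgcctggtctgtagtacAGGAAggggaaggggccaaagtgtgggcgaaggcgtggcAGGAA
Hcst: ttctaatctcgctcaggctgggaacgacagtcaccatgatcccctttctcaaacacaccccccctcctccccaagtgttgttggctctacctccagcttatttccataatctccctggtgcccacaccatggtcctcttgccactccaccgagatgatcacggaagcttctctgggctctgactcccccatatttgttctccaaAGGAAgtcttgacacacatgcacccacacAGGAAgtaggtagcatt
Cd247: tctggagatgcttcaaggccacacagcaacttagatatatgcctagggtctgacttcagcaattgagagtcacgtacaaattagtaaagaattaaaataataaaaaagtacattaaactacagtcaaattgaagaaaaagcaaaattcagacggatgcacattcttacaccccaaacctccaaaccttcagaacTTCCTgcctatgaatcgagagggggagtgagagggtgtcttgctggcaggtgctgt
Lat: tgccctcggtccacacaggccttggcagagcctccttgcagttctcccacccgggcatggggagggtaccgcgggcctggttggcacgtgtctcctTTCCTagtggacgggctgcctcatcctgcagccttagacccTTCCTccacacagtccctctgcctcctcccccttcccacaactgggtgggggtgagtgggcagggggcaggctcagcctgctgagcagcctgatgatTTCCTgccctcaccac

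The ETS core was found 2 times in the Fcer1g window, 2 times in that of Hcst, 1 time in that of Cd247 and 3 times in that of Lat. It occurs in 60.3% of all 32851 RefSeq windows of this length. Both strands were also searched for the RUNX core TGTGGT, which 14.05% of all windows hold, for the T-box core TCACAC, which 12.3% hold, and for AGATAA, the core bound by factors such as GATA3, which 9.99% hold. None of these had a match in the 4 windows. No match shared bases with another motif. A match is a stretch of letters and not a measured binding site.

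The adaptors Fcer1g and Tyrobp and the scaffold Lat2 formed a block that was high in every NK1.1+, ILC1l, cNK and ILTC1 library and low in every NK1.1- library. Lat ran the other way. Cd247 was highest in 2 of the NK1.1- CD8 populations and lowest in ILC1l and TCR-NK1.1+. Syk was graded within the first block, from cNK down to CD8 T cells where it was barely counted, and Hcst and Zap70 were present throughout. In the edgeR quasi-likelihood test with adjustment over all genes (a call is an adjusted p under 0.05), 5 of the 9 genes passed between TCRb+CD8a+NK1.1+ and TCRb+CD8a+PD1+ cells, 3 higher and 2 lower, where 2.11% of all 15727 tested genes passed (1.09% higher, 1.02% lower). Between TCRb+CD8a+NK1.1+ and TCRb+CD8a+PD1-NK1.1- cells 6 of 9 passed, 4 higher and 2 lower, against 1.78% of all genes (0.916% higher, 0.865% lower). cNK against TCRb+CD8a+NK1.1- gave 4 of 9, 3 higher and 1 lower, against 1.74% of 16828 genes (0.701% higher, 1.04% lower), and TCRab+ILTC1 against the same T cells gave 2 of 9, both higher, against 0.523% (0.244% higher). The first pair of comparisons shares the TCRb+CD8a+NK1.1+ libraries and the second pair the TCRb+CD8a+NK1.1- libraries, so the members of a pair are not independent.

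**Figure D1:**
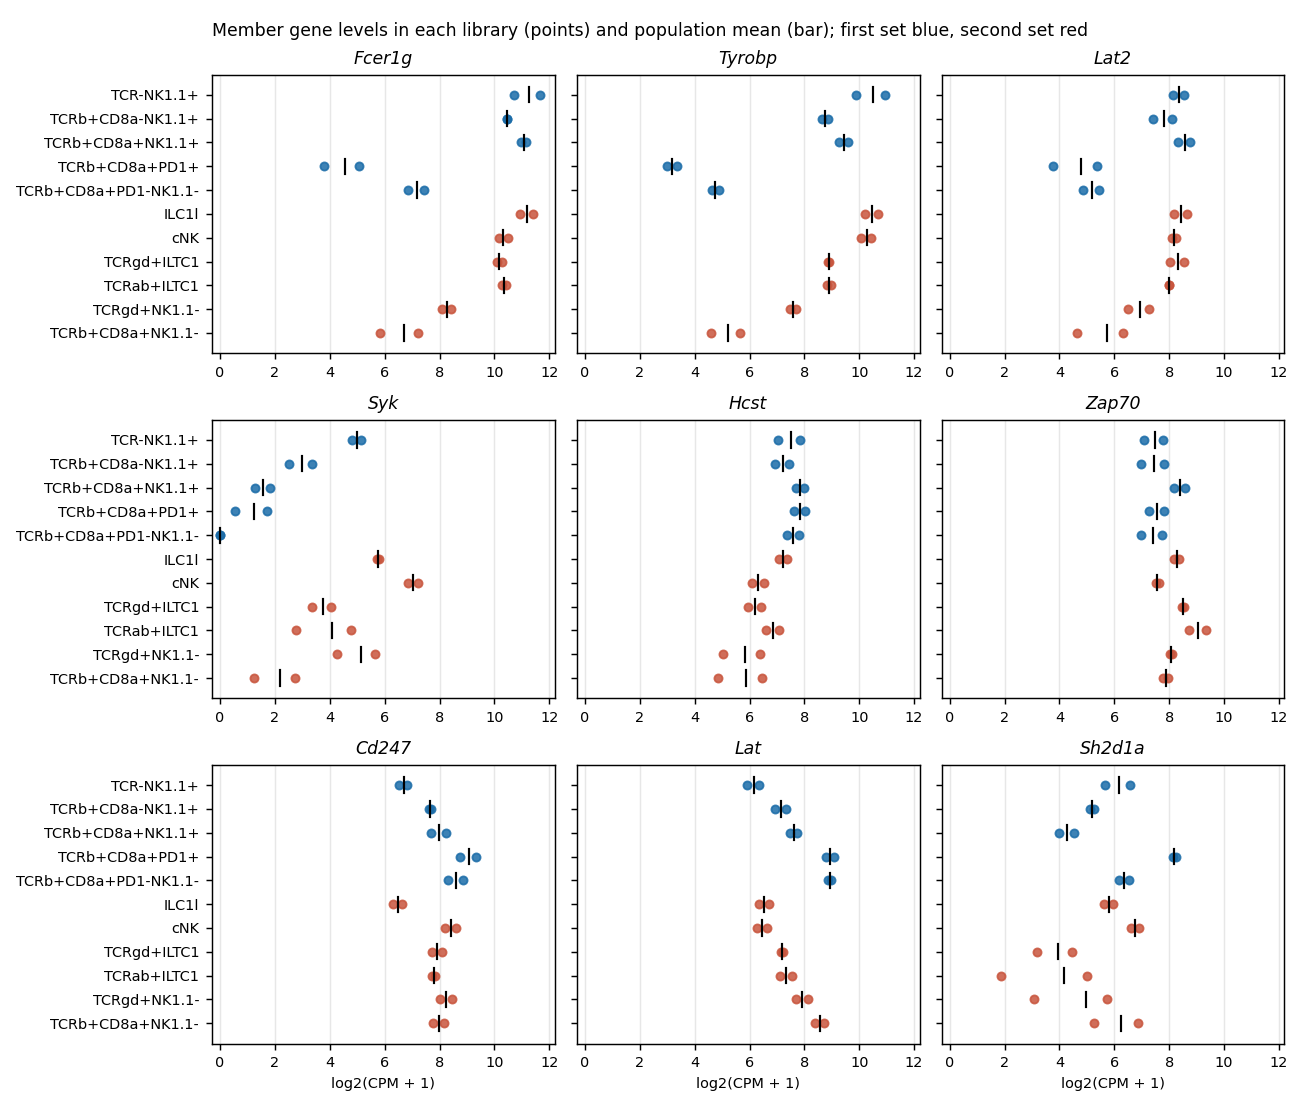
Levels of the 9 genes as log2(CPM + 1) on the x axis, 1 point per library and a bar at the mean of each population, with the 11 populations on the y axis (first set blue, second set red). Every Fcer1g point of the 7 NK1.1+, ILC1l, cNK and ILTC1 populations lies at or above 1084 CPM, and every point of the other 4 at or below 344 CPM.

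Fcer1g encodes the common gamma chain shared by Fc receptors and by NK receptors such as NKp46. Its level was 3220 and 1666 CPM in TCR-NK1.1+, 1948 and 2686 CPM in ILC1l and 1136 and 1425 CPM in cNK. In the NK1.1+ T cells it was 2295 and 2010 CPM in TCRb+CD8a+NK1.1+, 1398 and 1415 CPM in TCRb+CD8a-NK1.1+, 1369 and 1245 CPM in TCRab+ILTC1 and 1233 and 1084 CPM in TCRgd+ILTC1. These 7 populations overlapped one another in part, and both TCRb+CD8a+NK1.1+ libraries lay within the range of TCR-NK1.1+ and within that of ILC1l. The NK1.1- populations were lower, with 274 and 344 CPM in TCRgd+NK1.1-, 115 and 170 CPM in TCRb+CD8a+PD1-NK1.1-, 55.8 and 148 CPM in TCRb+CD8a+NK1.1- and 32.3 and 12.7 CPM in TCRb+CD8a+PD1+. No NK1.1- library reached the lowest library of the other class. Differences in bulk RNA cannot tell fewer cells that express a gene from less RNA per cell.

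Fcer1g was higher in TCRb+CD8a+NK1.1+ than in TCRb+CD8a+PD1+ cells by a log2 fold change of 6.58 ± 0.55 (SE; edgeR adjusted p = 0.00057), a 95.6-fold difference. It was also higher than in TCRb+CD8a+PD1-NK1.1- cells, by 3.92 ± 0.49 (edgeR adjusted p = 0.00434), although without replicate 1 of the latter the adjusted p was 0.0513. Between those NK1.1- populations it was lower in the PD1+ cells by a log2 fold change of -2.66 ± 0.46 (edgeR adjusted p = 0.0448), the only one of the 9 genes that passed there, where 0.451% of all genes passed (0.267% lower). That call was lost without TCRb+CD8a+PD1-NK1.1- replicate 1 (adjusted p = 0.0862), without its replicate 2 (0.153) and without TCRb+CD8a+PD1+ replicate 2 (0.218). In the second set Fcer1g was higher in TCRab+ILTC1 than in TCRb+CD8a+NK1.1- cells by 3.64 ± 0.45 (edgeR adjusted p = 0.0155), and higher in cNK than in those T cells by 3.57 ± 0.44 (0.00377).

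Tyrobp encodes DAP12, the ITAM adaptor of activating Ly49 and other NK and myeloid receptors. Its level was 1958 and 937 CPM in TCR-NK1.1+, 1193 and 1660 CPM in ILC1l and 1078 and 1384 CPM in cNK. The NK1.1+ T cells held less, with 769 and 618 CPM in TCRb+CD8a+NK1.1+, 465 and 395 CPM in TCRb+CD8a-NK1.1+, 479 and 467 CPM in TCRgd+ILTC1 and 455 and 498 CPM in TCRab+ILTC1. Unlike Fcer1g, Tyrobp thus separated the 3 populations without a TCR sort marker from all NK1.1+ T cells, with no overlap of libraries. It was 175 and 208 CPM in TCRgd+NK1.1-, 23.2 and 49.6 CPM in TCRb+CD8a+NK1.1-, 23.8 and 28.2 CPM in TCRb+CD8a+PD1-NK1.1- and 9.37 and 6.91 CPM in TCRb+CD8a+PD1+.

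Tyrobp was higher in TCRb+CD8a+NK1.1+ than in TCRb+CD8a+PD1+ cells by a log2 fold change of 6.41 ± 0.44 (edgeR adjusted p = 0.000166) and than in TCRb+CD8a+PD1-NK1.1- cells by 4.74 ± 0.41 (0.0013). It was higher in TCRab+ILTC1 than in TCRb+CD8a+NK1.1- cells by 3.67 ± 0.39 (edgeR adjusted p = 0.0129), and in cNK than in those cells by 5.01 ± 0.41 (0.000749). Each of these 4 calls held when any 1 of the 4 libraries compared was left out. The mean of ILC1l and cNK lay above the mean of the ILTC1 populations by 1.46 ± 0.25 (edgeR adjusted p = 0.0273), the only one of the 9 genes to pass in that comparison, where 0.981% of all genes did (0.279% higher). This call was less firm: it was kept in 1 of 8 fits that each left out a library, and the adjusted p in the other 7 ran from 0.0562 (without ILC1l replicate 1) to 0.134 (without TCRgd+ILTC1 replicate 2), with the fold change between 1.35 and 1.57. In the first set the same direction was measured between TCRb+CD8a-NK1.1+ and TCR-NK1.1+ cells, where Tyrobp differed by -1.72 ± 0.36 without passing (edgeR adjusted p = 0.201).

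The balance of the 2 adaptors within a library, taken per base of annotated exon, needs no scaling between libraries. The Tyrobp to Fcer1g ratio was 1.24 and 1.27 in cNK, 0.803 and 0.810 in ILC1l and 0.797 and 0.737 in TCR-NK1.1+. All 6 of these libraries lay above the NK1.1+ T-cell populations, which ran from 0.366 to 0.565, but cNK stood highest by the ratio while its mean Tyrobp level was the lowest of the 3. The NK1.1- CD8 T cells, with little of either adaptor, ran from 0.217 to 0.713 and overlapped the NK1.1+ T cells. TCRgd+NK1.1- had 0.839 and 0.791, beside its myeloid sum of 6821 and 16781 CPM.

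Cd247 encodes the zeta chain, an ITAM adaptor of the TCR complex and of NKp46 in NK cells. It was highest in TCRb+CD8a+PD1+ (639 and 433 CPM) and TCRb+CD8a+PD1-NK1.1- (459 and 315 CPM), populations whose libraries overlapped. It was lowest in ILC1l (78.8 and 97.2 CPM) and TCR-NK1.1+ (112 and 91.9 CPM), and no library of another population came below 194 CPM. cNK held 293 and 387 CPM, in the range of the T cells, and the remaining 6 populations lay between 194 and 349 CPM. ILC1l and cNK, both Fcer1g- and Tyrobp-high, were therefore separated by this adaptor.

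Between ILC1l and cNK, Cd247 differed by a log2 fold change of -1.92 ± 0.28 (edgeR adjusted p = 0.0108), the only call among the 9 genes, where 1.02% of all genes passed (0.41% lower). With 1 of the 4 libraries left out the fold change stayed between -2.11 and -1.68, but the adjusted p exceeded the threshold each time: 0.1497 without ILC1l replicate 1, 0.0925 without ILC1l replicate 2, 0.0578 without cNK replicate 1 and 0.128 without cNK replicate 2. Exons of Cd247 overlap those of Gm16565 on the same strand and Pou2f1 on the other (GENCODE M21), and the sources used here do not say whether the counting was by strand. TCRb+CD8a+NK1.1+ cells held 301 and 207 CPM, and their difference of -1.07 ± 0.31 from TCRb+CD8a+PD1+ cells did not pass (edgeR adjusted p = 0.169). It passed with a replicate block (0.0249), without the low-count filter (0.0467) and in DESeq2 (adjusted p = 0.0211).

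**Figure D2:**
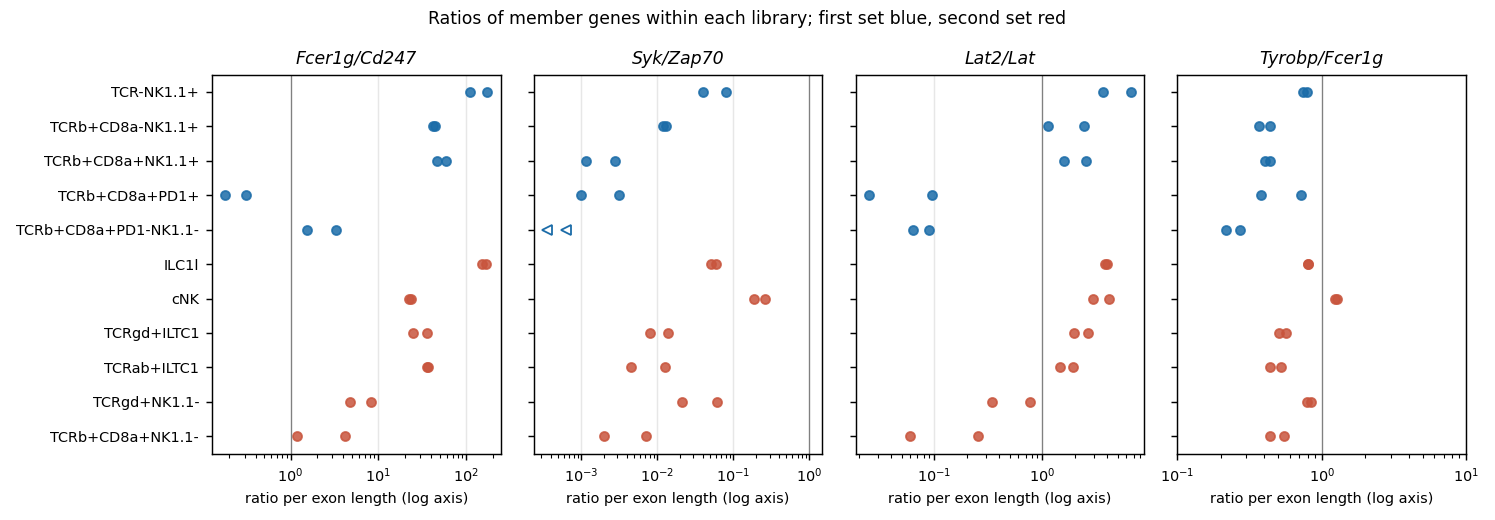
Ratios of paired genes per base of annotated exon in each library (x axes, log scale), with the 11 populations on the y axis (first set blue, second set red); the open triangles are upper limits where Syk had 0 counts, computed with 3 counts. Fcer1g over Cd247 runs from 0.179 in a TCRb+CD8a+PD1+ library to 175 in a TCR-NK1.1+ library, and Syk over Zap70 stays below 1 in all 22 libraries.

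Set against each other per exon length, Fcer1g and Cd247 changed places between populations. The Fcer1g to Cd247 ratio was 175 and 111 in TCR-NK1.1+ and 151 and 169 in ILC1l. It was 46.5 and 59.2 in TCRb+CD8a+NK1.1+, 41.6 and 44.5 in TCRb+CD8a-NK1.1+, 36.6 and 35.8 in TCRab+ILTC1, 35.5 and 24.6 in TCRgd+ILTC1 and 23.6 and 22.5 in cNK. The NK1.1- populations had 4.78 and 8.16 (TCRgd+NK1.1-), 1.53 and 3.30 (TCRb+CD8a+PD1-NK1.1-), 1.18 and 4.21 (TCRb+CD8a+NK1.1-) and 0.308 and 0.179 (TCRb+CD8a+PD1+). Per exon length Cd247 exceeded Fcer1g in the 2 TCRb+CD8a+PD1+ libraries alone, whereas by counts it did so in 7 of the 8 NK1.1- libraries and in none of the other 14. Exon lengths are those of all annotated exons of a gene, 874 bases for Fcer1g and 5329 for Cd247, so a ratio depends on which transcripts the cells use. SMARTer amplification can also favour transcript ends, and its part in these ratios was not tested.

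Hcst ranged from 28.2 CPM in a TCRb+CD8a+NK1.1- library to 261 CPM in a TCRb+CD8a+PD1+ library. Its population means ran from 228 ± 32.1 CPM (SD, n = 2) in TCRb+CD8a+NK1.1+ to 56.7 ± 35.8 CPM in TCRgd+NK1.1-, and 9 of the 10 pairs of neighbours in that order overlapped. The gene passed in none of the 14 comparisons in edgeR. Hcst did not track its chromosomal neighbour Tyrobp: TCRb+CD8a+PD1+ cells held 194 and 261 CPM of Hcst and 9.37 and 6.91 CPM of Tyrobp.

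Zap70, the kinase that binds the TCR complex, was present in all 22 libraries at 124 to 654 CPM. TCRab+ILTC1 held the most (417 and 654 CPM), above every other library, followed by TCRgd+ILTC1 (350 and 367 CPM), TCRb+CD8a+NK1.1+ (289 and 385 CPM) and ILC1l (331 and 289 CPM). The lowest means, 167 to 189 CPM, belonged to TCRb+CD8a+PD1-NK1.1-, TCRb+CD8a-NK1.1+, TCR-NK1.1+, TCRb+CD8a+PD1+ and cNK, whose libraries overlapped. DESeq2 called Zap70 for TCRab+ILTC1 against TCRb+CD8a+NK1.1- cells (1335 genes called in all). It also did so for the mean of ILC1l and cNK against the ILTC1 mean (765 genes in all). In edgeR no comparison of Zap70 passed. The nearest were the mean of ILC1l and cNK against the ILTC1 mean, at -0.88 ± 0.18 (edgeR adjusted p = 0.0582, and 0.0162 without TCRab+ILTC1 replicate 1), and TCRab+ILTC1 against TCRb+CD8a+NK1.1- cells, at 1.17 ± 0.25 (0.0826, and 0.0192 without TCRab+ILTC1 replicate 1).

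Syk, the second kinase of the family and the dominant one in B and myeloid cells, spanned the widest range. Its level was 113 and 149 CPM in cNK, 52.3 and 54.2 CPM in ILC1l and 34.2 and 27.2 CPM in TCR-NK1.1+. TCRgd+ILTC1 held 15.3 and 9.25 CPM, TCRab+ILTC1 5.86 and 26.2 CPM and TCRb+CD8a-NK1.1+ 4.65 and 9.13 CPM. Every cNK library was above every ILC1l library, and both were above every NK1.1+ T-cell library. The CD8 T cells sorted with TCRb had the lowest means, with 1 library in the range of TCRb+CD8a-NK1.1+: TCRb+CD8a+NK1.1+ held 2.52 and 1.39 CPM, TCRb+CD8a+NK1.1- 5.66 and 1.34 CPM and TCRb+CD8a+PD1+ 0.468 and 2.24 CPM. Both TCRb+CD8a+PD1-NK1.1- libraries had 0 counts. TCRgd+NK1.1- broke the order with 18.4 and 49.5 CPM, and the higher of these was the library with the higher myeloid sum (16781 CPM).

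Syk was higher in cNK than in TCRb+CD8a+NK1.1- cells by a log2 fold change of 5.17 ± 0.94 (edgeR adjusted p = 0.0261). The adjusted p was 0.0789 without cNK replicate 1, 0.101 without cNK replicate 2 and 0.173 without TCRb+CD8a+NK1.1- replicate 2. The myeloid sum was 1563 and 2182 CPM in cNK and 762 and 981 CPM in these T cells. The myeloid marker Lyz2 was at 4.92 and 83.1 CPM in cNK and at 106 and 250 CPM in the T cells. Csf1r was at 6.84 and 52.6 against 53.4 and 19.5 CPM, and C1qa at 2.38 and 17.8 against 16.7 and 10.7 CPM. The higher sum in cNK thus came from other genes of the list. In the cNK library with 4.92 CPM of Lyz2, Syk was 113 CPM. The part of myeloid RNA in the Syk difference was not tested. TCRb+CD8a+NK1.1+ cells, with 29 and 16 counts of Syk, were at least 16.4-fold higher than TCRb+CD8a+PD1-NK1.1- cells, a bound computed with 3 counts over the group at 0 (edgeR adjusted p = 0.0398). This call rests on very few counts, and the adjusted p lay between 0.106 and 0.219 when any 1 of the 4 libraries was left out. TCRb+CD8a+NK1.1+ and TCR-NK1.1+ cells differed by -3.96 ± 0.85 without passing (edgeR adjusted p = 0.0636).

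Zap70 exceeded Syk per exon length in every library. The Syk to Zap70 ratio was 0.185 and 0.262 in cNK, 0.0505 and 0.0601 in ILC1l and 0.0811 and 0.0396 in TCR-NK1.1+. It lay between 0.00116 and 0.0140 in the NK1.1+ T-cell populations. The annotated exons of Syk add up to 9362 bases and those of Zap70 to 2992, which lowers the ratio if part of the Syk annotation is not transcribed in these cells; by counts alone Zap70 still led in all 22 libraries, by 2059 to 1690 in the closest.

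Lat2 encodes the scaffold NTAL (LAB) of B, NK and myeloid cells, and its levels repeated the pattern of Fcer1g and Tyrobp. They were 375 and 284 CPM in TCR-NK1.1+, 286 and 397 CPM in ILC1l and 277 and 301 CPM in cNK. In NK1.1+ T cells they were 430 and 322 CPM in TCRb+CD8a+NK1.1+, 277 and 168 CPM in TCRb+CD8a-NK1.1+, 261 and 375 CPM in TCRgd+ILTC1 and 253 and 251 CPM in TCRab+ILTC1. Of the NK1.1+ T cells, 3 populations overlapped the joint range of TCR-NK1.1+, ILC1l and cNK, and both TCRab+ILTC1 libraries lay below it. TCRb+CD8a-NK1.1+ reached the range of cNK alone. The NK1.1- populations lay lower, at 90.1 and 152 CPM in TCRgd+NK1.1-, 24.2 and 79.6 CPM in TCRb+CD8a+NK1.1-, 28.2 and 42.3 CPM in TCRb+CD8a+PD1-NK1.1- and 40.01 and 12.7 CPM in TCRb+CD8a+PD1+. The gap between the classes was narrow for TCRgd+NK1.1- (152 against 168 CPM) and wide for the CD8 T cells.

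Lat2 was higher in TCRb+CD8a+NK1.1+ than in TCRb+CD8a+PD1+ cells by a log2 fold change of 3.83 ± 0.55 (edgeR adjusted p = 0.0061), which held in all 4 fits that left out a library. Against TCRb+CD8a+PD1-NK1.1- cells it was higher by 3.42 ± 0.54 (edgeR adjusted p = 0.0135). That call was lost without TCRb+CD8a+NK1.1+ replicate 1 (adjusted p = 0.0756), TCRb+CD8a+PD1-NK1.1- replicate 1 (0.134) or its replicate 2 (0.0626). Between cNK and TCRb+CD8a+NK1.1- cells it differed by 2.40 ± 0.53 (edgeR adjusted p = 0.0585, and 0.0152 without TCRb+CD8a+NK1.1- replicate 2). Between TCRab+ILTC1 and the same cells it differed by 2.24 ± 0.52 (0.103). Exons of Lat2 overlap those of Rfc2 on the other strand.

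Lat, the scaffold of TCR signalling, had the reverse pattern in 3 steps. The populations without a TCR sort marker were lowest, with 59.6 and 81.3 CPM in TCR-NK1.1+, 99.3 and 76.0 CPM in cNK and 80.1 and 104 CPM in ILC1l. NK1.1+ T cells came next, with 121 and 159 CPM in TCRb+CD8a-NK1.1+, 140 and 148 CPM in TCRgd+ILTC1, 184 and 138 CPM in TCRab+ILTC1 and 179 and 212 CPM in TCRb+CD8a+NK1.1+. The first step overlapped no library of the others. NK1.1- CD8 T cells were highest, with 446 and 542 CPM in TCRb+CD8a+PD1+, 466 and 504 CPM in TCRb+CD8a+PD1-NK1.1- and 423 and 330 CPM in TCRb+CD8a+NK1.1-. TCRgd+NK1.1-, with 278 and 208 CPM, lay between the NK1.1+ T cells and the CD8 T cells and overlapped the former.

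Some of these steps passed a test and others did not. Lat was lower in TCRb+CD8a+NK1.1+ than in TCRb+CD8a+PD1+ cells by a log2 fold change of -1.33 ± 0.27 (edgeR adjusted p = 0.0333) and than in TCRb+CD8a+PD1-NK1.1- cells by -1.30 ± 0.27 (0.0433). It was higher in TCRb+CD8a+NK1.1+ than in TCR-NK1.1+ cells by 1.48 ± 0.27 (edgeR adjusted p = 0.0304), 1 of 2 genes of the 9 to pass there, against 1.54% of all genes (0.267% higher, 1.27% lower). It was lower in cNK than in TCRb+CD8a+NK1.1- cells by -2.17 ± 0.29 (edgeR adjusted p = 0.00501). The same direction did not pass between TCRab+ILTC1 and TCRb+CD8a+NK1.1- cells (-1.26 ± 0.28, edgeR adjusted p = 0.0902), TCRb+CD8a-NK1.1+ and TCR-NK1.1+ cells (1.02 ± 0.27, 0.412), TCRab+ILTC1 and ILC1l (0.80 ± 0.28, 0.728), or the mean of ILC1l and cNK and the ILTC1 mean (-0.78 ± 0.20, 0.138). Of the calls, that in cNK was lost without cNK replicate 2 (adjusted p = 0.083). The first was lost without any 1 of its 4 libraries (0.116 to 0.367) and so was the second (0.218 to 0.437), while the third was lost without TCR-NK1.1+ replicate 1 (0.156) and without TCRb+CD8a+NK1.1+ replicate 1 (0.170) or replicate 2 (0.233). In these fits the fold changes stayed between -1.46 and -1.18 for the first 2 and between 1.23 and 1.60 for the third. The summed level of 16 epithelial genes was 6551 and 4029 CPM in TCR-NK1.1+ against 615 and 738 CPM in TCRb+CD8a+NK1.1+ cells, and its part in that comparison was not tested.

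The Lat2 to Lat ratio per exon length stood above 1 in all 14 libraries of the NK1.1+, ILC1l, cNK and ILTC1 populations and below 1 in all 8 others. It was 6.65 and 3.69 in TCR-NK1.1+, 3.77 and 4.01 in ILC1l and 2.94 and 4.19 in cNK, and between 1.12 and 2.68 in the NK1.1+ T cells. The closest of the NK1.1- populations was TCRgd+NK1.1- with 0.343 and 0.770, and the CD8 T cells there ran from 0.0247 to 0.254.

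**Figure D3:**
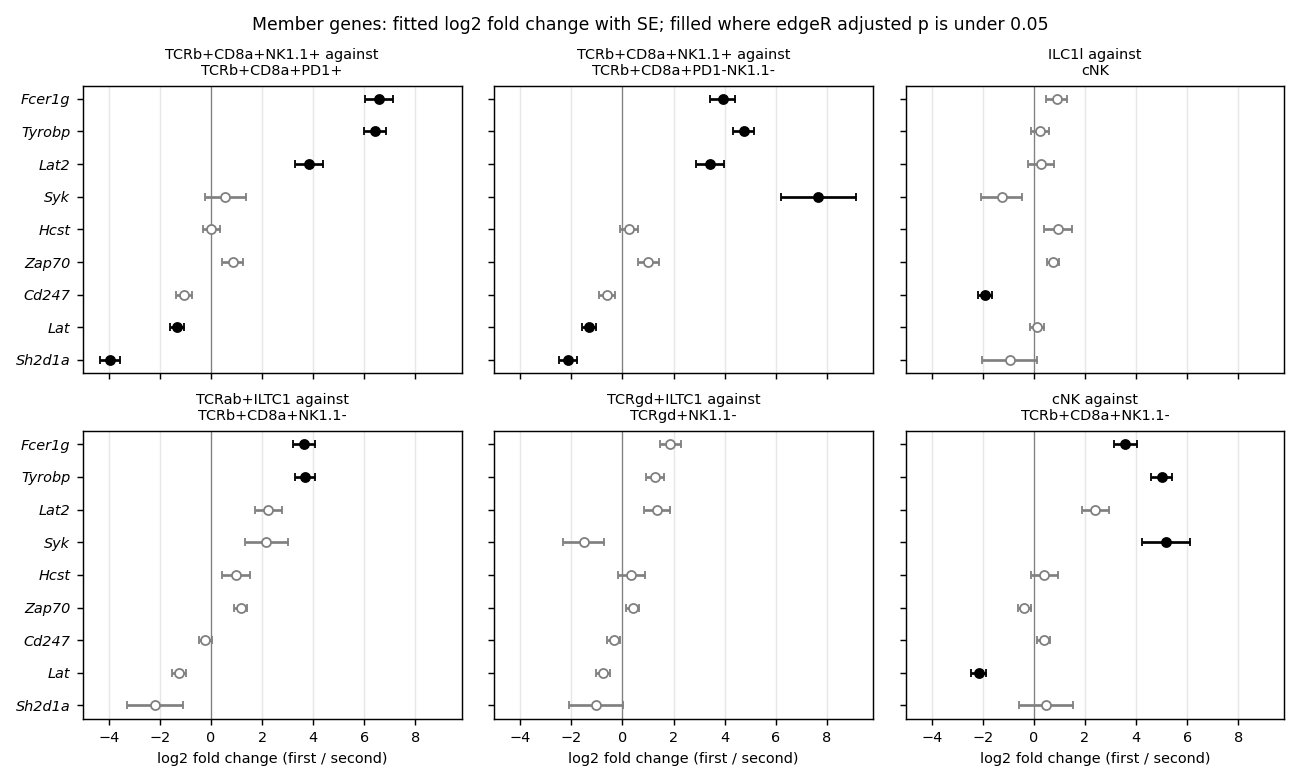
Fitted log2 fold changes (x axis; point with SE bar) of the 9 genes (y axis) in 6 comparisons, filled where the edgeR adjusted p is under 0.05. Fcer1g and Tyrobp are filled in all 4 comparisons with an NK1.1- CD8 T-cell population and in neither of the other 2, and the Syk point against TCRb+CD8a+PD1-NK1.1- cells depends on a prior count because that group had 0 counts.

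Sh2d1a encodes SAP, which couples SLAM receptors to the kinase Fyn. TCRb+CD8a+PD1+ cells held 301 and 278 CPM, more than any other library of the study, followed by cNK with 97.1 and 119 CPM. TCRb+CD8a+PD1-NK1.1- held 71.1 and 91.9 CPM, TCR-NK1.1+ 93.4 and 49.97 CPM and ILC1l 60.9 and 48.5 CPM. NK1.1+ T cells were low, at 22.4 and 14.8 CPM in TCRb+CD8a+NK1.1+, 33.6 and 37.7 CPM in TCRb+CD8a-NK1.1+, 21.1 and 8.12 CPM in TCRgd+ILTC1 and 30.9 and 2.68 CPM in TCRab+ILTC1. All 8 of these libraries lay below every library of the 5 populations before. TCRb+CD8a+NK1.1- (114 and 37.2 CPM) and TCRgd+NK1.1- (52.7 and 7.48 CPM) had replicates too far apart to place.

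Sh2d1a was lower in TCRb+CD8a+NK1.1+ than in TCRb+CD8a+PD1+ cells by a log2 fold change of -3.96 ± 0.39 (edgeR adjusted p = 0.000885), in all 4 fits that left out a library as well. It was lower than in TCRb+CD8a+PD1-NK1.1- cells by -2.13 ± 0.36 (edgeR adjusted p = 0.0212) and than in TCR-NK1.1+ cells by -1.95 ± 0.36 (0.031). Leaving out 1 library gave adjusted p between 0.0686 and 0.233 for the former in all 4 fits. For the latter it gave 0.132 without TCR-NK1.1+ replicate 1, 0.170 without TCRb+CD8a+NK1.1+ replicate 1 and 0.277 without its replicate 2. In 1 fit over all 22 libraries these 3 adjusted p-values were 0.0605, 0.601 and 0.440. In the second set, where the replicates differed most, no comparison of Sh2d1a passed in edgeR. DESeq2 called Sh2d1a there for the mean of ILC1l and cNK against the ILTC1 mean, among 765 genes in all. Exons of Sh2d1a overlap those of Tenm1 on the other strand.

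Sh2d1b2, a near-identical neighbour of Sh2d1b1 that encodes an EAT-2-type adaptor of NK cells, did have a row, and its reads could not be told apart from any that Sh2d1b1 lost to it. It had 192 and 199 counts in ILC1l, 139 and 145 in cNK and 112 and 178 in TCR-NK1.1+. It had 89 and 39 counts in TCRgd+ILTC1, 45 and 58 in TCRab+ILTC1, 51 and 13 in TCRb+CD8a-NK1.1+ and 30 and 18 in TCRb+CD8a+NK1.1+. The NK1.1- populations had 8 counts or fewer in each library. The difference between cNK and TCRb+CD8a+NK1.1- cells was 5.12 ± 0.97 on the log2 scale (edgeR adjusted p = 0.0302).

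Within the NK1.1+ class, calls among the 9 genes were few, and some are given above. TCRb+CD8a+NK1.1+ against TCR-NK1.1+ cells gave 2 of 9, against 1.54% of all genes. ILC1l against cNK gave 1 of 9 (1.02%), and the mean of ILC1l and cNK against the ILTC1 mean gave 1 of 9 (0.981%). The comparisons that follow gave none. Where 0.0% of all genes passed, 0 of 9 is no result about these genes. TCRb+CD8a+NK1.1+ against TCRb+CD8a-NK1.1+ cells gave 0 of 9 in edgeR, where 0.337% of all genes passed. At an unadjusted p under 0.05 there were 3 of 9 and 9.34% of all genes, and DESeq2 called 0 of 9 and 611 genes in all. TCRb+CD8a-NK1.1+ against TCR-NK1.1+ cells gave 0 of 9 and 0.0% of all genes in edgeR, with 5 of 9 and 1345 of all genes at an unadjusted p under 0.05; DESeq2 called 201 genes, Tyrobp and Lat among them. TCRab+ILTC1 against ILC1l also gave 0 of 9 and 0.0% in edgeR, with 4 of 9 and 1072 of all genes at an unadjusted p under 0.05. DESeq2 called 241 genes there, with Cd247 and Tyrobp among them. For TCRgd+ILTC1 against TCRab+ILTC1 edgeR gave 0 of 9 and 0.0%, with 1 of 9 (Zap70) and 570 of all genes at an unadjusted p under 0.05, and DESeq2 called 77 genes and none of the 9. Between the ILTC1 populations Fcer1g differed by -0.18 ± 0.40, Tyrobp by -0.01 ± 0.35 and Lat2 by 0.34 ± 0.50 on the log2 scale, none of them larger than its SE.

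TCRgd+ILTC1 against TCRgd+NK1.1- cells gave 0 of 9 calls in edgeR, where 1.59% of all genes passed. At an unadjusted p under 0.05 there were 4 of 9 and 17.4% of all genes. DESeq2 called Tyrobp, Lat and Fcer1g, with 1872 genes called in all. Fcer1g differed by 1.88 ± 0.41 (edgeR adjusted p = 0.0586), Tyrobp by 1.28 ± 0.35 (0.106), Lat2 by 1.36 ± 0.51 (0.208) and Syk by -1.51 ± 0.80 (0.369). The corresponding alpha-beta comparison, TCRab+ILTC1 against TCRb+CD8a+NK1.1- cells, gave 3.64 ± 0.45 for Fcer1g, 3.67 ± 0.39 for Tyrobp, 2.24 ± 0.52 for Lat2 and 2.17 ± 0.83 for Syk. The test of the difference between these 2 differences passed for 0 of 9 genes in edgeR, where 0.0535% of all genes passed. At an unadjusted p under 0.05 there were 3 of 9 and 8.85% of all genes. DESeq2 called Syk and Tyrobp, with 463 genes called in all. The edgeR values of this test were -2.40 ± 0.50 for Tyrobp (edgeR adjusted p = 0.208), -3.68 ± 1.16 for Syk (0.409) and -1.76 ± 0.57 for Fcer1g (0.412).

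Myeloid genes moved with the gamma-delta comparison. In TCRgd+NK1.1- the defining myeloid marker Lyz2 was at 2068 and 4197 CPM, Csf1r at 277 and 1330 CPM and C1qa at 160 and 289 CPM. In TCRgd+ILTC1 they were at 6.61 and 13.3, 5.07 and 9.33, and 0.588 and 0.827 CPM, in the same order. The TCRgd+NK1.1- library with the higher myeloid sum also held more Fcer1g, Tyrobp, Syk and Lat2 than the other, and the part of myeloid RNA in these 4 levels was not tested. Leaving TCRgd+NK1.1- out of the fit of the second set changed no call of the 9 genes in the 5 comparisons of 2 populations that do not use it. For the mean of ILC1l and cNK against the ILTC1 mean, a fit chosen after seeing the data kept the Tyrobp call (edgeR adjusted p = 0.0241) and added Zap70 (0.0444). The summed level of 8 mast-cell genes was 486 and 624 CPM in cNK and 127 and 98.5 CPM in ILC1l. It was 101 and 135 CPM in TCR-NK1.1+ and 55.4 and 82.5 CPM in TCRb+CD8a+NK1.1-. Within that list Mcpt4 and Ms4a2 were at most 0.421 CPM in any library. A list of 9 B-cell genes summed to between 140 CPM (a TCRb+CD8a+PD1+ library) and 1086 CPM (a TCRab+ILTC1 library), with Pax5 at most 2.30 CPM. The part of mast-cell or B-cell RNA in the levels of the 9 genes was not tested.

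**Figure D4:**
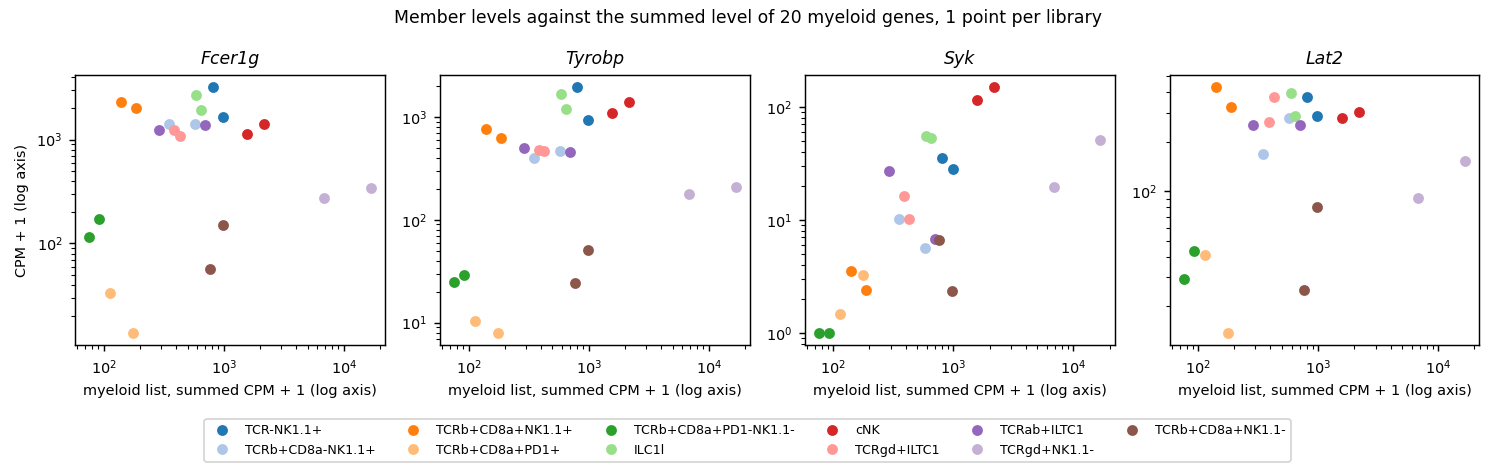
CPM + 1 of Fcer1g, Tyrobp, Syk and Lat2 (y axes, log scale) against the summed CPM + 1 of the 20 myeloid genes (x axes, log scale), 1 point per library, coloured by population. The TCRb+CD8a+NK1.1+ libraries combine 2295 and 2010 CPM of Fcer1g with myeloid sums of 139 and 186 CPM, and the TCRgd+NK1.1- libraries lie far to the right at 6821 and 16781 CPM.

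The summed myeloid level was 139 and 186 CPM in TCRb+CD8a+NK1.1+, where TCRb+CD8a+PD1+ cells had 113 and 176 CPM and TCRb+CD8a+PD1-NK1.1- cells 74.7 and 90.7 CPM, while Fcer1g differed 95.6-fold between the first and the second. TCRab+ILTC1 had 702 and 287 CPM, below the 762 and 981 CPM of TCRb+CD8a+NK1.1- cells, which held less Fcer1g and Tyrobp. The sums overlapped in the comparison with TCRb+CD8a+PD1+ cells and were higher in TCRb+CD8a+NK1.1+ than in TCRb+CD8a+PD1-NK1.1- cells. In the comparison with TCRab+ILTC1 they ran opposite to Fcer1g and Tyrobp. The part of myeloid RNA in these differences was not tested.

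Receptors and enzymes around these genes were taken from 6 lists of 72 genes in all, of which 70 were tested in the first set and 71 in the second. Between TCRb+CD8a+NK1.1+ and TCRb+CD8a+PD1+ cells 14 of 70 were called higher and 2 lower, against 172 and 160 of all 15727 tested genes. The median log2 fold change was 0.28 against -0.0024 over all tested genes. The 14 included 5 of 15 receptors that pair with ITAM or YINM adaptors, Klrb1c among them, and 4 of 10 Src, Tec and Csk kinases. Ncr1, which encodes the Fcer1g- and Cd247-coupled receptor NKp46, was at least 350-fold higher (edgeR adjusted p = 0.00417; 40.9 against 0 CPM). Klrb1c, the gene of the sort marker and itself an Fcer1g-coupled receptor, was higher by 9.08 ± 0.63, and Cd300lb, a Tyrobp-coupled receptor, by 6.98 ± 1.07. The lower genes were Slamf6 (-4.69 ± 0.55), a receptor that binds SAP, and Ubash3a (-1.33 ± 0.29), a negative regulator of TCR signalling.

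Against TCRb+CD8a+PD1-NK1.1- cells, 11 of 70 were higher and 3 lower, against 144 and 136 of all 15727 genes (median 0.19 against 0.0 over all genes). The 3 lower genes were among 6 SLAM receptors tested: Slamf6 (-5.22 ± 0.57), Slamf1 (-3.93 ± 0.81) and Cd84 (-1.62 ± 0.34). Another SLAM receptor, Cd244a, named after its values were seen, went the other way and was higher by 2.79 ± 0.33 (edgeR adjusted p = 0.0037), and by 2.68 ± 0.32 than in TCRb+CD8a+PD1+ cells (0.00296). Ncr1 (7.15 ± 0.96), Klrb1c (5.99 ± 0.54) and Cd300lb (4.76 ± 0.93) had the largest rises. Between the PD1+ and PD1-NK1.1- populations 0 were higher and 3 lower, against 29 and 42 of all 15727 genes (median -0.08 against 0.0). The 3 were Cd79b (-3.24 ± 0.53), a B-cell receptor chain, Klrb1c (-3.09 ± 0.50) and Pag1 (-2.25 ± 0.32), an adaptor that holds the inhibitory kinase Csk.

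TCRb+CD8a+NK1.1+ against TCR-NK1.1+ cells gave 4 higher and 3 lower of 70, against 42 and 200 of all 15727 genes (median 0.42 against -0.05). The TCR-complex chains Cd3e (2.46 ± 0.35) and Cd3d (2.24 ± 0.24) and the phospholipase Plcg1 (2.38 ± 0.45) were higher. Because the sort was on the TCR, the direction of the Cd3 genes was set in advance. The count of higher genes therefore partly restates the sort. The Tyrobp-coupled activating receptors Klra4 (-8.01 ± 1.02) and Klra8 (-7.47 ± 1.11) and Ncr1 (-5.12 ± 0.76) were lower, though Klra genes are near-identical and may share reads. Between ILC1l and cNK, 5 of 71 were higher and 2 lower, against 102 and 69 of all 16828 genes (median -0.35 against 0.03). The higher ones were led by Cd3e (6.40 ± 1.05), Cd3g (6.07 ± 0.63) and Cd3d (4.31 ± 0.62). The lower ones were Dok2 (-1.96 ± 0.31), a negative regulator, and Pik3r1 (-1.92 ± 0.25), the regulatory subunit of phosphoinositide 3-kinase. Thus Cd247 was lower, and the Cd3 genes higher, in ILC1l than in cNK.

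cNK against TCRb+CD8a+NK1.1- cells gave 11 higher and 6 lower of 71, against 118 and 175 of all 16828 genes (median 0.37 against -0.05). The largest rises were Ncr1, at least 25007-fold higher (2617 against 0 CPM), Klra8 (11.14 ± 1.81) and Klra4 (10.91 ± 2.03). The largest falls were Themis (-10.39 ± 0.90), a TCR-signalling adaptor, Cd3e (-7.90 ± 1.12) and Cd3g (-6.60 ± 0.65). Only the T cells here were sorted for a TCR, so the falls of the Cd3 genes partly restate that sort. TCRab+ILTC1 against the same T cells gave 3 higher and 1 lower, against 41 and 47 of all genes (median 0.45 against -0.07). Ncr1 was at least 1340-fold higher, and the phospholipase Plcg2 (2.65 ± 0.45) and the Tec-family kinase Txk (2.08 ± 0.31) were higher, while Themis was lower (-3.59 ± 0.63). TCRgd+ILTC1 against TCRgd+NK1.1- cells gave 8 higher and 0 lower, against 113 and 155 of all genes (median 0.45 against -0.13). The 8 were led by Ncr1 (7.47 ± 1.30), Klrb1c (7.20 ± 1.07) and Klrc2 (4.87 ± 0.99), a Tyrobp-coupled receptor. The mean of ILC1l and cNK against the ILTC1 mean gave 2 higher and 6 lower, against 47 and 118 of all genes (median -0.07 against 0.08). The higher ones were Klra8 (5.72 ± 0.98) and Pik3r1 (0.90 ± 0.17), and the lower ones were led by Cd3e (-5.57 ± 0.71), Themis (-4.82 ± 0.51) and Cd3g (-4.63 ± 0.42). Here too the Cd3 falls partly restate the TCR label of the ILTC1 populations.

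Across the 11 population means, the genes most like Fcer1g among 8991 genes were Tyrobp (Pearson r = 0.971 of log2 CPM), Lat2 (0.968) and Clnk (0.967), itself an adaptor of immunoreceptor signalling. Tyrobp was most like Lat2 (0.975), Fcer1g and Gadd45g (0.966), and Lat2 was most like Tyrobp, Aoah (0.972) and Fcer1g. The 3 genes thus named one another out of the whole list. Lat was most like Bcl11b (0.961), Fam169b and Themis (0.942), and ran against Fcer1g (-0.887) and Tyrobp (-0.951). Syk was most like Scimp (0.944), Slc2a6 and Cyb5r3, Sh2d1a like Eomes (0.949), Wdr95 and AB124611, and Cd247 like Fam76b (0.960), Nr3c1 and Dnaja2. Zap70 was most like Gm1840, Sema4d (0.960) and Sept9, and Hcst like Lsm12 (0.974), Med10 and Zcchc17, with r = 0.03 between Hcst and Fcer1g. These r values are descriptive: the points share libraries and scaling, the populations overlap in kind, and each mean rests on 2 libraries.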

How the data were processed

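RNA-seq libraries were made from flow-sorted cells, with cDNA amplified by the SMARTer method, per the labels' protocols. The authors deposited 1 table of raw gene counts. Per the submitters' processing notes it involved BWA 0.7.5a, Picard and HTSeq with the builds mm9 and NCBIM37; how strand and ambiguous reads were handled is unknown from them. Of 37620 rows, 32897 (99.02% of counts) were matched to symbols with GENCODE M21 (GRCm38), which also gave the exon lengths. Tests used these deposited counts and the quasi-likelihood method of edgeR 4.0.16 in R 4.3.3. Libraries were scaled by TMM and genes kept by filterByExpr, a Benjamini-Hochberg adjusted p below 0.05 was a call, and models had 1 mean per population, fitted separately for 5 populations (10 libraries, 15727 genes) and 6 populations (12 libraries, 16828 genes). SE is the log2 fold change divided by the root of F. For a group at 0 counts the fold is a bound from 3 counts over the group, and limits from 3 counts cover counting error only. Figures used matplotlib 3.10.9 in Python 3.11.15.

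The genes and lists were chosen with earlier results of these data known. Named were all the member genes, the 3 called pathway genes of largest rise and of largest fall in each comparison, and, for each member, the 3 most similar genes over population means with at least 20 CPM in the highest population. Counts simulated for TCRb+CD8a+NK1.1+ against TCRb+CD8a+PD1+ cells (15033 genes) were called in 4% of genes changed by a log2 of 1, 48% at 2, 94% at 4 and 100% at 6. For TCRab+ILTC1 against TCRb+CD8a+NK1.1- cells (15765 genes) the shares were 0%, 38%, 74% and 100%. False calls were 7 of 130 in the former and 3 of 109 in the latter. Each simulated gene had the spread typical of its level, and genes of low level were not changed. The shares therefore do not cover genes near 0 counts, such as Syk in CD8 T cells, or genes with replicates far apart, such as Sh2d1a. Alternatives were DESeq2 1.42.0, its size factors, no low-count filter, a replicate block, 1 fit over 22 libraries, and leaving out each library.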

Additional observations from a re-analysis of the deposited data

How the results depend on the processing

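With 2 libraries per population, small changes were mostly out of reach, and the number of calls moved with the test more than the fold changes did. Of the 9 genes, the number called between TCRb+CD8a+PD1+ and TCRb+CD8a+PD1-NK1.1- cells was 1 in edgeR, 4 without the low-count filter, 4 in DESeq2 and 3 with a replicate block. For TCRb+CD8a+NK1.1+ against TCR-NK1.1+ it was 2, and 5, 5 and 4 under these settings and 1 in the fit over 22 libraries. For TCRb+CD8a-NK1.1+ against TCR-NK1.1+ it was 0, with 1 without the filter and 2 in DESeq2, and for TCRab+ILTC1 against ILC1l 0, with 2 and 2. For TCRab+ILTC1 against TCRb+CD8a+NK1.1- it was 2, with 7 without the filter, 5 in DESeq2 and 4 over 22 libraries. For TCRgd+ILTC1 against TCRgd+NK1.1- it was 0, with 3, 3 and 1, and 1 with the replicate block. For the difference of these differences it was 0, with 3 without the filter and 2 in DESeq2, and for the mean of ILC1l and cNK against the ILTC1 mean 1, with 4, 5 and 2 over 22 libraries, and 2 without the TCRgd+NK1.1- libraries (chosen after seeing the data). DESeq2 size factors in edgeR changed none of these counts. Calls over all genes were also more numerous in DESeq2 than in edgeR. For these 8 comparisons, in the order given, they went from 71 to 381, 242 to 1143, 0 to 201 and 0 to 241. For the last 4 they went from 88 to 1335, 268 to 1872, 9 to 463 and 165 to 765. Shares of all genes under the other settings are not given here. The cause of these changes was not tested. Over single genes, DESeq2 added 24 calls and lost none, and the fit over 22 libraries added 5 and lost 3, all of Sh2d1a.

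Leaving out 1 library gave 1 to 3 calls for TCRb+CD8a+NK1.1+ against TCRb+CD8a+PD1-NK1.1- (6 with all), 0 to 1 for TCRb+CD8a+PD1+ against TCRb+CD8a+PD1-NK1.1-, 0 to 3 for TCRb+CD8a+NK1.1+ against TCR-NK1.1+, 0 in each fit for ILC1l against cNK (1 with all), 2 to 4 for TCRab+ILTC1 against TCRb+CD8a+NK1.1-, 2 to 4 for cNK against TCRb+CD8a+NK1.1-, and 0 to 3 for the mean of ILC1l and cNK against the ILTC1 mean. A lone library left in a population is assumed to vary like the others.

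Changes of sign were met only in differences that had not passed. For Hcst in TCRb+CD8a+NK1.1+ against TCRb+CD8a+PD1+ cells the log2 difference of 0.01 became -0.0026 with DESeq2 size factors and -0.0033 in DESeq2. With 1 library left out, the range there was -0.19 to 0.24 for Hcst and -0.19 to 2.04 for Syk. In TCRb+CD8a+PD1+ against TCRb+CD8a+PD1-NK1.1- it was -0.17 to 0.59 for Zap70, -0.12 to 0.16 for Lat and -1.47 to 0.19 for Lat2. In TCRb+CD8a+NK1.1+ against TCR-NK1.1+ it was -0.55 to 0.34 for Fcer1g and -0.025 to 0.38 for Lat2, and in TCRb+CD8a-NK1.1+ against TCR-NK1.1+ -0.60 to 0.19 for Hcst and -0.49 to 0.41 for Zap70. In ILC1l against cNK it was -0.011 to 0.47 for Tyrobp and -0.096 to 0.31 for Lat. In TCRgd+ILTC1 against TCRgd+NK1.1- it was -0.15 to 1.14 for Hcst and -1.95 to 0.90 for Sh2d1a. In TCRgd+ILTC1 against TCRab+ILTC1 it was -0.073 to 0.056 for Tyrobp, -0.067 to 0.30 for Cd247, -1.09 to 1.07 for Syk, -0.35 to 0.069 for Lat and -1.08 to 2.44 for Sh2d1a. In cNK against TCRb+CD8a+NK1.1- it was -0.16 to 1.40 for Hcst and -0.12 to 1.45 for Sh2d1a. In the difference of differences it was -1.61 to 0.15 for Hcst and -0.32 to 0.063 for Cd247.

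Replicate numbers were not shown to pair libraries: deviations of same-numbered libraries correlated at 0.034 to 0.177 over 10 pairs of populations in the first set (median 0.112, 6 above 0.1) and at -0.044 to 0.129 over 15 in the second (median 0.061, 1 above 0.1). A fit with the replicate block added 9 single-gene calls and lost none, and Sh2d1a in TCRgd+ILTC1 against TCRab+ILTC1 became 0.17.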
